A study of Homo sapiens with 32 samples.

Results

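The genes described here are the nuclear-encoded subunits of the mitochondrial respiratory chain and ATP synthase, taken by gene name: NDUFA, NDUFB, NDUFC, NDUFS and NDUFV names for complex I, SDHA to SDHD for complex II, UQCR names for complex III, COX4I to COX8 names for complex IV and ATP5 names for complex V. Assembly factors (NDUFAF names) and pseudogenes were left out, and a mean of at least 10 normalized counts over the 32 libraries was required. Of 94 rows that met the name rule, 84 passed, among 12406 genes tested of 60107 in the tables. They divided into 40 genes of complex I, 4 of complex II, 9 of complex III, 11 of complex IV and 20 of complex V. Among them, 77 were subunits, 3 were regulators (ATP5IF1, COX7A2L and ATP5S), 2 were like genes (UQCRHL and ATP5MGL) and 2 were antisense RNAs (NDUFB2-AS1 and NDUFV2-AS1).

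The RNA came from THP-1 cells, a human monocytic leukemia line, in which ACLY had been knocked out. ACLY is the enzyme that makes acetyl-CoA from citrate in the cytosol. There were 4 lines on this background: knockout cells (KO), and knockout cells given wild type ACLY (WT), the catalytically inactive ACLY H760A (HA) or the phospho-deficient ACLY S455A (SA) by lentivirus. Each line was measured untreated and 3 h after addition of LPS at 100 ng/ml, with 4 libraries in each of the 8 groups. Whether the KO cells carried an empty vector is not given in the sources used here. Every genotype was 1 line, so genotype and the history of the line cannot be told apart. The labels do not say that the 4 libraries of a group were separate cultures, so p-values measure only the spread between these libraries, which may be technical. RNA was sequenced from the 3′ end of transcripts, so the level of a gene is a count of 3′ reads and needs no correction for length. In bulk RNA, fewer cells of a kind and less RNA per cell cannot be told apart. ACLY itself had 90.7 to 117 normalized counts in untreated WT libraries and 67.2 to 107 in untreated KO libraries, and a 3′ read outside the edited part does not check a knockout.

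The respiratory chain passes electrons from NADH (complex I) or succinate (complex II) through ubiquinone to complex III, cytochrome c and complex IV, and complexes I, III and IV pump the protons that drive ATP synthase. Most subunits are encoded in the nucleus, a few core subunits of complexes I, III, IV and V are encoded in mitochondrial DNA, and complex II is wholly nuclear and also a step of the citric acid cycle. In macrophages, LPS is known to turn metabolism towards glycolysis, with itaconate made by ACOD1 inhibiting complex II.

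Between 6504099 and 14750815 reads fell on genes per library (median 10247620), and 13460 to 18552 genes had a read. The members took 1.87 to 2.77% of the reads. All 14 monocytic markers had a mean of at least 10 normalized counts, and 15 of 16 markers of other cell types were below 10. The SA LPS replicate 1 library had the fewest genes with a read, 13460 against 17383 to 18552 in the other 3 of its group. Calls and medians that it moved are given with and without it.

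Values are normalized counts on 1 scale over all 32 libraries (median-of-ratios size factors), and differences are log2 fold changes on the log2(count + 1) scale. Subunits of complexes III, IV and V had the highest levels. ATP5MG of the membrane part of ATP synthase was highest, with a mean level of 14869. COX4I1, a regulatory subunit of complex IV, followed at 12738, and UQCRB, a ubiquinone-binding subunit of complex III, at 11261. In complex I, NDUFS6 had a mean level of 5801 and NDUFB9 4685. Complex II genes were low: the flavoprotein SDHA had a mean level of 708, the membrane anchor SDHC 589.7, the iron-sulfur subunit SDHB 267 and the anchor SDHD 54.5. The lowest members were the antisense RNA NDUFV2-AS1 at 11.2 and NDUFB2-AS1 at 17.8. The strand setting of the counting is not given in the sources used here, so these antisense RNAs cannot be told apart from the genes they overlap.

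Summed over its members, each complex kept its place in all 8 groups. Complex I summed to group means of 66470 to 77921, complex V to 69653 to 85386, complex IV to 43588 to 51031 and complex III to 29943 to 36266, while complex II summed to 711 to 2116. In every complex the lowest of the 8 group means was untreated HA and the highest was LPS-treated WT. For complex I the untreated sums were 76963 ± 4623 (SD, n = 4) in WT, 69872 ± 5156 in KO, 66470 ± 6323 in HA and 73597 ± 5362 in SA. The libraries of these groups overlapped, the lowest WT library (70172) lying below the highest of KO (73707) and of HA (75738).

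Complex IV isoforms of other tissues were at or near 0. COX4I2, COX6A2, COX7A1 and COX7B2, isoforms known from lung, muscle, heart and testis, and the readthrough NDUFC2-KCTD14 had no read in any library. Over all libraries a count of 0 allows up to 0.00924 RPM, counting error only. On the deposited scale, used for the rule, COX8C had a mean level of 3.61 and COX6B2 0.809, against joint-scale levels of 3953 for COX8A and 2803 for COX6B1. NDUFA4L2, the hypoxia-induced relative of NDUFA4, had a mean level of 6.80. The other 2 rows below the minimum were NDUFA6-AS1 and the readthrough ATP5MF-PTCD1.

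**Figure D1:**
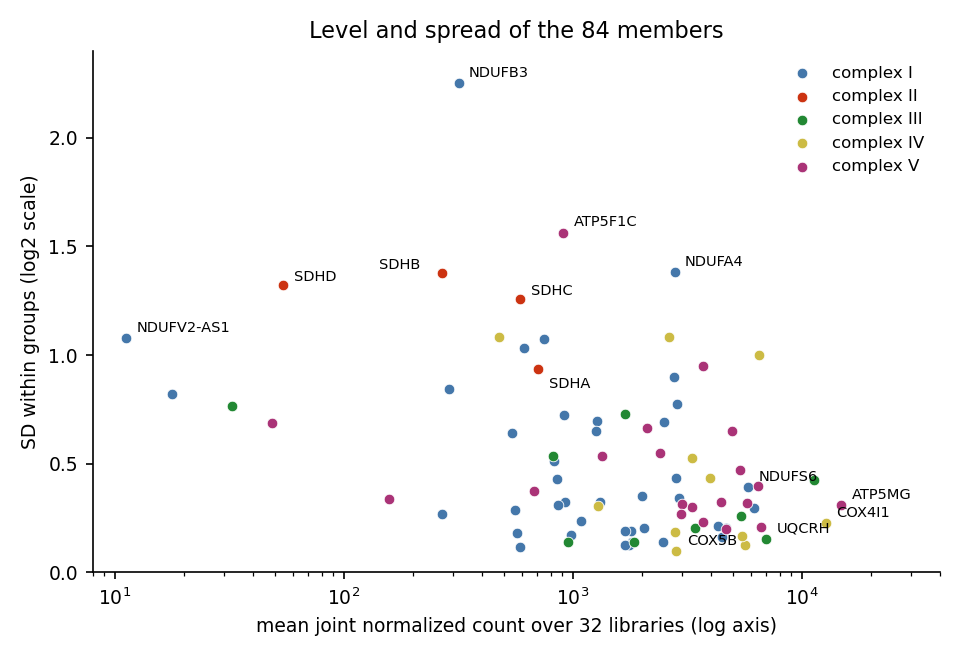
Mean normalized count over the 32 libraries (x, log axis) against the within-group SD on the log2 scale (y) for the 84 members, coloured by complex. COX5B has the smallest SD (0.0976) and NDUFB3 the largest (2.25), and the 4 genes of complex II lie between 0.935 and 1.38.

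The members differed widely in how closely libraries of 1 group followed each other. The pooled within-group SD on the log2 scale ran from 0.0976 to 2.25 with a median of 0.347, against 0.422 over all genes tested. COX5B, a zinc-binding subunit of complex IV, was steadiest, between 2306 and 3133 in all 32 libraries. The complex medians of this SD were 0.332 (I), 1.29 (II), 0.261 (III), 0.306 (IV) and 0.357 (V).

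There were 11 members with a within-group SD above 1, and within a group many of them were lowest in the same library. They were picked by their spread in these same libraries, so a far value in 1 library itself helped to pick them. The counts that follow are therefore a description and no test. In untreated KO and in LPS-treated SA, all 11 were lowest in replicate 3 and replicate 1, respectively, the libraries with the fewest genes with a read of their groups (15672 and 13460). In untreated WT, LPS-treated WT and LPS-treated KO, 10 of the 11 were lowest in replicate 3. In untreated SA and LPS-treated HA 8 were lowest in replicate 1, and in untreated HA 6 were. NDUFB3, a small accessory subunit of complex I, shows the pattern. Its levels were 445, 579, 48.2 and 484 in untreated WT and 333, 837, 14.9 and 231 in untreated KO, replicates 1 to 4. They were 0, 556, 295 and 635 in LPS-treated SA. NDUFA4, named for complex I and now placed in complex IV, had 4278, 4169, 1273 and 3910.1 in untreated WT. It had 3549, 4488, 451 and 3239 in untreated KO, and 84.5, 3973, 3557 and 3922 in LPS-treated SA. For both genes 1 library lay far below the other 3 in each of these groups. In every untreated group, the library where most of the 11 were lowest also had the fewest genes with a read. The same held in LPS-treated HA and SA, but not in LPS-treated WT or KO. The part of the number of genes with a read in the results was not tested.

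The deviations of KO replicate 3 and SA LPS replicate 1 from their group means ran in parallel, with a Spearman correlation of 0.92 across the 84 members (genes are not independent, and all libraries were made with 1 kit). In SA LPS replicate 1, 33 members lay over 1 log2 unit below the group mean and 8 over 1 above it. All 21 members over 1 below the mean in KO replicate 3 were among the 33. SA LPS replicate 1 was the lowest of all 32 libraries for 38 members and the highest for 18.

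**Figure D2:**
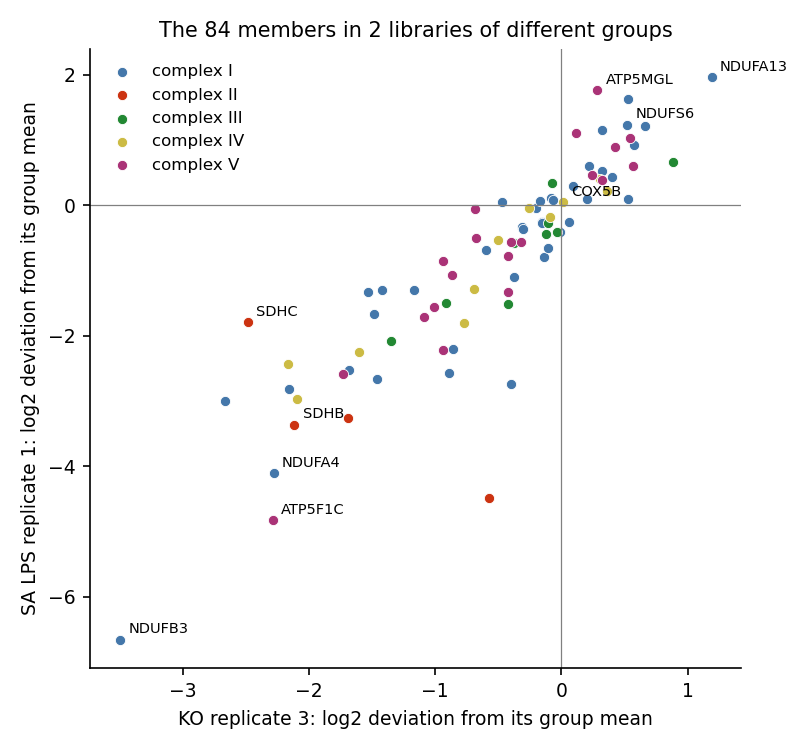
Log2 deviation of each of the 84 members from its group mean in KO replicate 3 (x) and SA LPS replicate 1 (y), coloured by complex. The points rise together (Spearman 0.92 across genes), and 21 members lie over 1 below the mean in both libraries.

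Each line was first compared with WT. Comparisons with WT share the WT libraries and are not independent of each other. In untreated cells none of the 84 members passed limma at an adjusted p of 0.01 in KO, where 2.9% of all genes tested passed, in HA (2.52% of all genes) or in SA (0% of all genes). At an unadjusted p of 0.05 in limma, 4, 16 and 5 members passed, against 1770, 3045 and 445 of the 12406 genes tested. With limma's voom on the recovered reads the counts were also 0. With limma's library weights, 3 members passed in KO (NDUFS6, SDHA and UQCRH, all lower), 25 in HA (24 lower) and 0 in SA. The shares of all genes that passed with weights are not reported here, so these counts are not read as particular to the members. Without SA LPS replicate 1, 1 member passed in KO (NDUFS6) and 1 in HA (UQCRH). After LPS none passed in KO (3.47% of all genes), HA (2.02%) or SA (0%), with 8, 4 and 3 at an unadjusted p of 0.05. Of the 12406 genes tested, 2138, 2072 and 646 were under that unadjusted limit. Library weights gave 2 in KO and 3 in HA, voom gave 1 in KO (NDUFS6), and without SA LPS replicate 1 KO and HA had 1 each, in both NDUFS6. No label gives a pairing of libraries, but replicate numbers were treated as pairing WT and KO libraries after correlations in these data were seen. With the number as a block in those libraries alone 4 members passed in untreated KO (NDUFB1, NDUFS6, SDHA and UQCRH, all lower). After LPS 5 passed in KO under this block, NDUFS6, SDHA, ATP5MC2 and ATP5ME lower and SDHD higher. The shares of all genes that passed under the block are also not reported here.

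More members had values below WT than above it, without passing the test. The median log2 fold change over the 84 members was -0.12 in untreated KO, -0.24 in untreated HA and -0.09 in untreated SA, and lower values outnumbered higher by 64 to 20, 58 to 26 and 54 to 30. After LPS the medians were -0.11, -0.19 and -0.16. These medians moved with single libraries. Without KO replicate 3 the untreated KO median turned to 0.02, and without SA LPS replicate 1 the LPS-treated SA median turned to 0.01, with 43 members higher and 41 lower. Leaving out 1 library at a time gave -0.36 to -0.15 in untreated HA (the ends without HA replicates 4 and 1), -0.14 to -0.01 in untreated SA (without SA replicates 2 and 1), -0.16 to -0.03 in LPS-treated KO (without KO LPS replicates 4 and 3) and -0.24 to -0.11 in LPS-treated HA (without HA LPS replicates 4 and 1). The medians of all genes lay between -0.03 and -0.01. With the size factors as deposited, set for each line separately, the median of all genes moved to -0.13 in KO, 0.12 in HA and 0.24 in SA (untreated), and the SA medians of the members turned to 0.17 untreated and 0.11 after LPS. The 95% interval of the difference lay within 1 log2 unit of no change for 54 (KO), 49 (HA) and 55 (SA) of the 84 members in untreated cells.

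By complex, untreated HA had the lowest medians of the untreated lines, which is a description with no test. Its complex medians of log2 fold change to WT were -1.49 for complex II, -0.35 for III, -0.30 for V, -0.25 for IV and -0.17 for I. In untreated KO the complex II median was -0.23 and in untreated SA -0.44. None of the 4 genes of complex II passed in HA, and their within-group SDs were 0.935 to 1.38. For none of them did the interval of the difference lie within 1 log2 unit of no change. HA replicate 1 had the fewest genes with a read of its group (15123). The HA median over all members was -0.15 without it and -0.36 without HA replicate 4. Complex medians without single HA libraries are not reported here. The leading member in HA was UQCRH (log2 fold change -0.43, adjusted p = 0.0327 in limma).

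**Figure D3:**
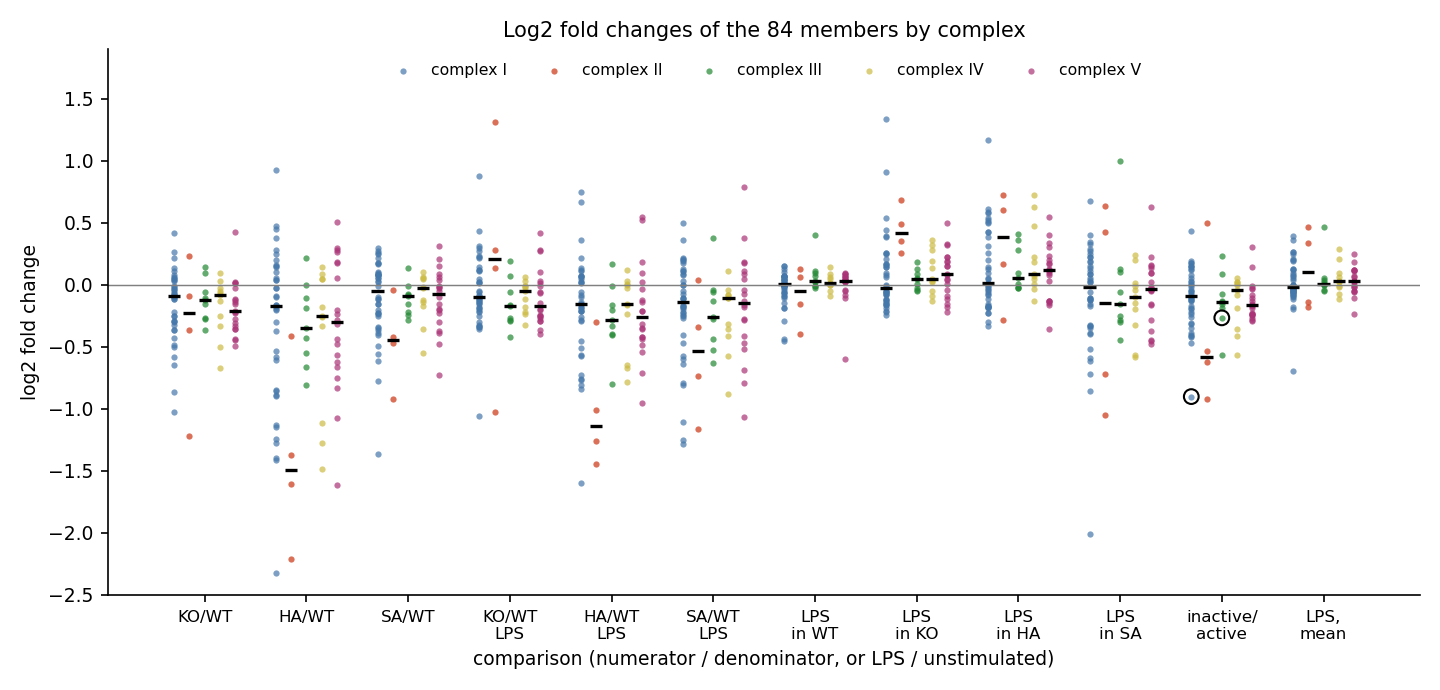
Log2 fold changes of the 84 members by complex in 12 comparisons, with a dash at each median and a ring around members with an adjusted p below 0.01 in limma. Ringed members appear in the comparison of inactive with active lines (NDUFS6 and UQCRH).

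The next comparison set the lines without active ACLY (KO and HA, 16 libraries) against the lines with active ACLY (WT and SA, 16 libraries), averaged over both treatments. In it, 2 of the 84 members passed, both lower, while 14.6% of all genes tested passed. NDUFS6 of complex I and UQCRH of complex III were the 2. The count was 17 with library weights (13 lower), 10 with the deposited size factors (all lower), 5 with voom and 5 with the replicate block over all libraries. With library weights the calls over all genes also rose, and with the deposited size factors most calls over all genes were lower. Without SA LPS replicate 1 the member count was 7, and without HA replicate 4 it was 4. Shares of all genes are not set beside the counts of these alternatives here, so the counts are not read as particular to the members. Lower values outnumbered higher by 59 to 25 (70.2% lower, against 51.2% of all genes), with a median of -0.13. The complex medians were -0.09 (I), -0.58 (II), -0.14 (III), -0.04 (IV) and -0.16 (V), and 18 of the 20 members of complex V were lower. These became -0.11, -0.79, -0.20, -0.13 and -0.22 without SA LPS replicate 1. The 95% interval lay within 0.5 log2 units of no change for 51 members and within 1 for 70.

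NDUFS6 (ENSG00000145494), a zinc-holding accessory subunit needed late in the assembly of complex I, lies on the short arm of chromosome 5 (chr5:1801407-1816048, plus strand, GRCh38). In untreated cells its levels in replicates 1 to 4 were 6497, 6072, 7672 and 7184 in WT, 3409, 2990.4, 5400.3 and 3627 in KO, 5909, 4464, 3615 and 4294 in HA, and 8190.2, 7089, 5476 and 8557 in SA. Every KO and HA library lay below every WT library, and the lowest SA library overlapped HA. After LPS the levels were 6865, 6373, 7528 and 7321 in WT, 3246, 2818, 3862 and 3625 in KO, 5649, 3175, 3729.7 and 3852 in HA, and 18867, 5246, 5712 and 7307 in SA. Again no KO or HA library reached the WT range, and SA replicate 1 stood far above all others.

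Across the inactive lines NDUFS6 was lower by a log2 fold change of -0.90 (SE 0.13, 95% interval -1.17 to -0.63, adjusted p = 7.14e-06 in limma), or 53.6% of the active level (interval 44.4 to 64.7%). It passed with each of the 32 libraries left out in turn, between -0.95 and -0.80. Against WT alone the log2 fold changes were -0.86 in KO (adjusted p = 0.0588 in limma), -0.60 in HA (0.160) and 0.08 in SA for untreated cells, and -1.06 (0.0118), -0.81 (0.0895) and 0.19 after LPS. With the 3 libraries of fewest genes left out, the adjusted p in limma was 0.000588 and 0.00940 for KO and HA untreated and 3.85e-05 and 0.000795 after LPS. In LPS-treated KO, NDUFS6 also passed when any of KO replicate 3, HA LPS replicate 1, SA LPS replicate 1 or SA LPS replicate 2 was left out.

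UQCRH (ENSG00000173660), the hinge protein of complex III that contacts cytochrome c1, lies on chromosome 1 (chr1:46303698-46316776, plus strand). Untreated levels were 8558, 8170.4, 7927 and 8231 in WT, 6666, 7200.3, 5865 and 5956 in KO, 5749, 5993, 6326 and 6326 in HA, and 5894, 7128, 7640.1 and 6528 in SA. All libraries of the other 3 lines, SA included, lay below all 4 of WT. After LPS the levels were 8676, 9032, 7198 and 7542 in WT, 6595, 7336, 6022 and 6704 in KO, 5564, 5939, 6419 and 6612 in HA, and 5438, 8137, 8065 and 8313 in SA. Here 3 SA libraries lay within the WT range and SA replicate 1 was the lowest of all.

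Across the inactive lines UQCRH was lower by a log2 fold change of -0.27 (SE 0.06, 95% interval -0.39 to -0.14, adjusted p = 0.00186 in limma), or 83.2% of the active level. It passed with each of the 32 libraries left out in turn. Untreated SA was -0.28 against WT (adjusted p = 0.998 in limma), close in size to KO (-0.36, 0.102). The near copy UQCRHL, an intronless gene elsewhere on chromosome 1, had a mean level of 32.4, and reads that fit both genes make either value uncertain.

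**Figure D4:**
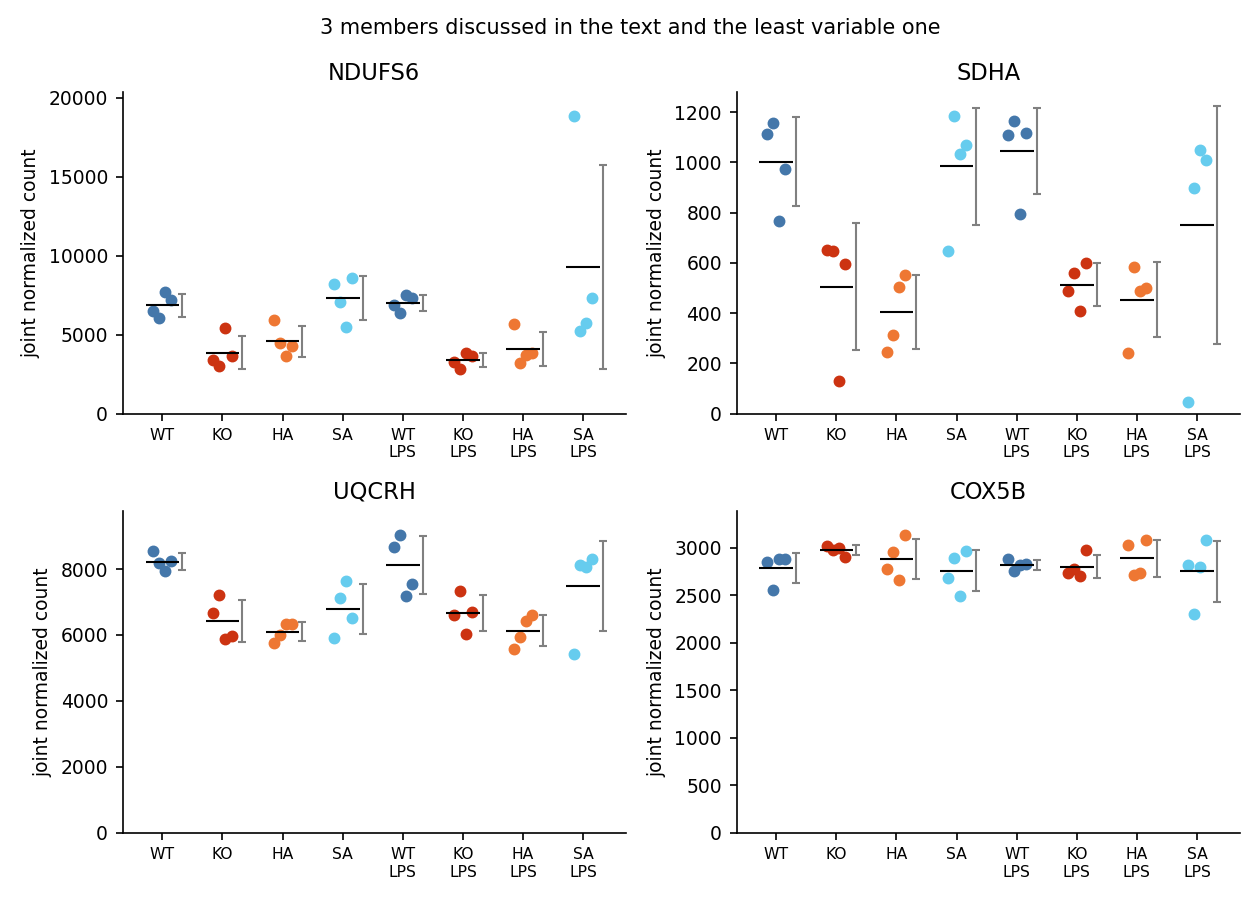
Normalized counts of NDUFS6, SDHA, UQCRH and COX5B in each of the 32 libraries by group, with a black line at the mean and a grey bar of 1 SD to each side (n = 4), the y axis starting at 0. NDUFS6 in KO and HA lies below WT in every library, and COX5B stays between 2306 and 3133.

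Complex II had the lowest summed level and the highest median within-group SD of the 5 complexes. SDHA (ENSG00000073578), the catalytic flavoprotein that oxidizes succinate, lies near the tip of the short arm of chromosome 5 (chr5:218303-257082, plus strand). Untreated levels were 1115, 1157, 766 and 974 in WT, 650.1, 646, 131 and 596 in KO, 246, 313, 505 and 553 in HA, and 647, 1186, 1035 and 1070.5 in SA. After LPS they were 1110.3, 1166, 793 and 1116 in WT, 489, 560.2, 407 and 598 in KO, 241, 585, 486 and 501 in HA, and 47.5, 898, 1051 and 1011 in SA. In both treatments every KO and HA library lay below every WT library, while most SA libraries lay within or near the WT range. The exceptions were untreated SA replicate 1, at the level of the highest KO library, and SA LPS replicate 1, the lowest of all 32.

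Across the inactive lines SDHA had a log2 fold change of -0.92 (SE 0.31, 95% interval -1.55 to -0.29) with an adjusted p of 0.0296 in limma, so it did not pass. Without SA LPS replicate 1 it was -1.19 with an adjusted p of 1.10e-05 in limma, the only 1 of the 32 libraries whose removal let it pass. The replicate block in WT and KO libraries alone was chosen after correlations in these data were seen, and no label gives the pairing. With that block, SDHA was lower in KO by a log2 fold change of -1.22 untreated (adjusted p = 0.00120 in limma) and -1.02 after LPS (0.00403). SDHA has near copies whose reads could be split from it. SDHAP1 reached 22.5 normalized counts at most and SDHAP3 3.47, and SDHAP2 had no read in any library.

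The 3 other genes of complex II had within-group SDs of 1.26 (SDHC), 1.38 (SDHB) and 1.32 (SDHD). SDHB, which carries electrons through its iron-sulfur clusters, had levels of 427, 426, 114 and 383 in untreated WT, 342, 565, 52.7 and 279.7 in KO, 35.6, 33.5, 105 and 131 in HA, and 87.0, 174, 449 and 89.6 in SA. HA was low in all 4 libraries, but WT replicate 3 lay among them. In HA against WT its log2 fold change was -2.21 (95% interval -4.06 to -0.35, adjusted p = 0.135 in limma). Across the inactive lines SDHB was at -0.62 (adjusted p = 0.351), SDHC at -0.53 (0.382) and SDHD at 0.50 (0.453), all in limma, with intervals that covered no change. They were at -0.90, -0.68 and 0.12 without SA LPS replicate 1, and none passed.

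Both members on the short arm of chromosome 5 had values near those of the other genes of that arm. This arm was looked at after the values were seen, so its values are a description with no test. Of the 97 tested genes on it, 93 were lower in the inactive lines, with a median log2 fold change of -0.91, and 76 passed, all lower (78.4% of the arm). On the long arm, with 461 tested genes, the median was 0.01. Over the 23 other chromosomes or arms, the long arm of chromosome 5 included and mitochondrial DNA left out, the medians lay between -0.04 and 0.05.

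The short-arm median was -0.93 in KO, -1.03 in HA and -0.05 in SA against untreated WT, and -0.85, -0.92 and -0.05 after LPS. Library by library, relative to the WT mean, it lay between -0.97 and -0.69 in untreated KO, between -1.02 and -0.95 in untreated HA, and between -0.13 and 0.06 in untreated SA. After LPS the ranges were -0.98 to -0.79 in KO, -1.09 to -0.87 in HA and -0.22 to 0.02 in SA. KO and HA thus lay apart from WT and SA in every library, SA LPS replicate 1 included. DNA copy number was not measured in these files, and the part of the arm in the values of NDUFS6 and SDHA was not tested. Across the inactive lines the 4 members on the long arm were at 0.03 (NDUFA2), 0.15 (NDUFS4), -0.13 (UQCRQ) and -0.19 (COX7C), none past the limit. COX7C had a 95% interval of -0.32 to -0.05. Without NDUFS6 and SDHA, the other 82 members had a median of -0.12 and 1 call, UQCRH.

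**Figure D5:**
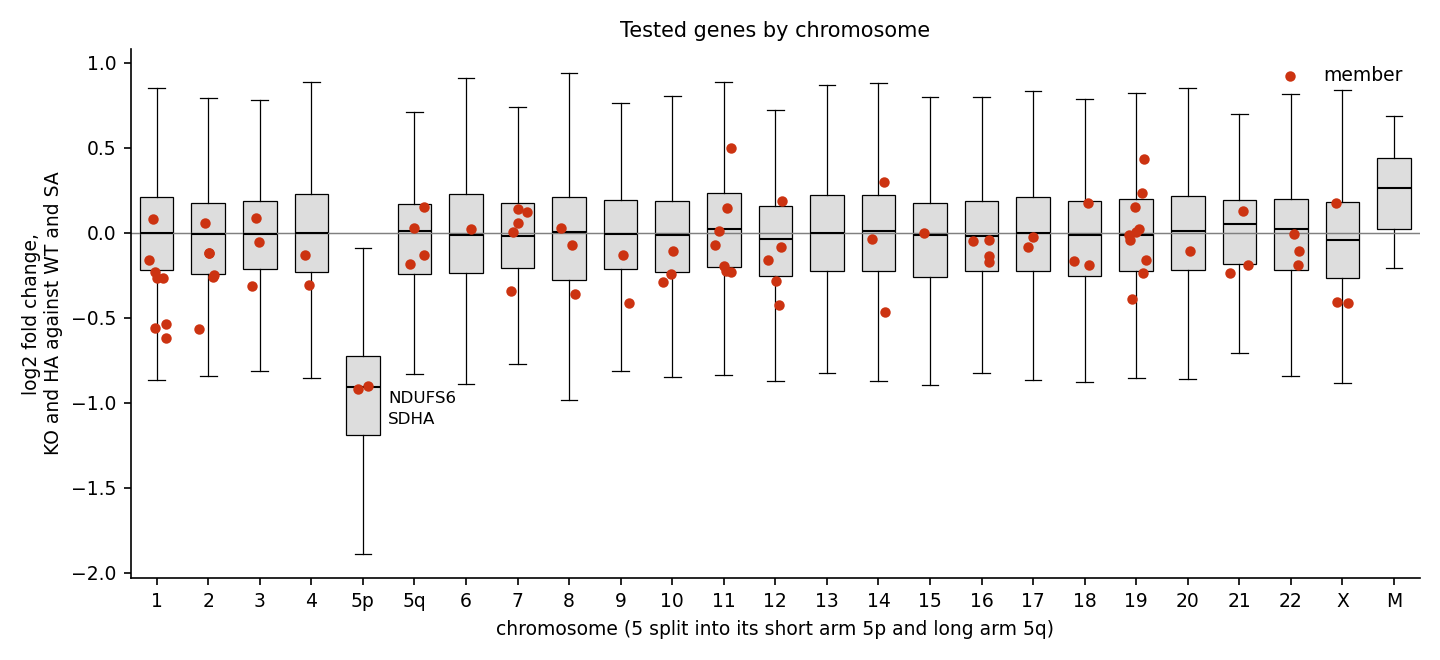
Log2 fold change between inactive and active lines for all tested genes by chromosome, with chromosome 5 split into arms (boxes are quartiles, whiskers reach 1.5 interquartile ranges, points beyond are not drawn) and members in red. The short arm of chromosome 5 has a median of -0.91 and holds NDUFS6 and SDHA, and the long arm has a median of 0.01.

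NDUFS6, SDHA and UQCRH each start close to a gene that runs the other way, and the DNA between the gene pairs is shown so that each start can be set beside the values of both genes. In each, the plus strand of GRCh38.p14 is printed from the end of the neighbour to the start of the member (RefSeq sequence, gene ends of GENCODE release 44), and capitals mark a match to an NRF1-type motif (GCGCA, any base, then GCGC) or an ETS-type motif (CCGGAAG, or CTTCCGG on the opposite strand). NRF1 and the ETS factor GABP are known regulators of respiratory genes.
MRPL36 to NDUFS6, chr5:1801367-1801406: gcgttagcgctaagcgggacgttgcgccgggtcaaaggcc
CCDC127 to SDHA, chr5:218154-218302: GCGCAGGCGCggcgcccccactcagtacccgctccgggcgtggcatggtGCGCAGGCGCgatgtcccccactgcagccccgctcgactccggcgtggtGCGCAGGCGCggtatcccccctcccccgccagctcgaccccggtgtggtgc
LRRC41 to UQCRH, chr1:46303617-46303697: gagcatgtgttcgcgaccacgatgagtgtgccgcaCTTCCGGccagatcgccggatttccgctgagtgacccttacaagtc

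The gap before NDUFS6 is 40 bases long and held no match, that before SDHA is 149 bases long and held 3 NRF1-type matches, and that before UQCRH is 81 bases long and held 1 ETS-type match. A match is a description and not a shown site. The neighbour MRPL36, a mitochondrial ribosomal protein, was lower across the inactive lines (log2 fold change -1.53, adjusted p = 0.00430 in limma), as was CCDC127 beside SDHA (-0.75, adjusted p = 2.15e-05). Both neighbours lie on the short arm of chromosome 5, where 78.4% of the 97 tested genes passed, all lower. Their lower values are therefore not particular to these gene pairs. LRRC41 beside UQCRH was at -0.29 with a wide interval of -1.20 to 0.62 (adjusted p = 0.692). Promoter windows from 250 bases before to 50 after the start were found for 68 of the 84 members in the RefSeq table. The NRF1-type motif was in 16 of them (23.5%), SDHA, SDHD, UQCRC1 and UQCRFS1 included, against 6.28% of all 27305 promoters, on either strand. The ETS-type motif was in 20 (29.4%), UQCRH, COX4I1 and COX5B included, against 10.7%. All promoters were not limited to the 12406 genes tested, so members and background may also differ in level. These shares are a description with no test.

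Below the call limit, 7 further members besides SDHA had an adjusted p under 0.05 in limma across the inactive lines, most with small differences. The complex I subunits NDUFS3 (log2 fold change -0.19, adjusted p = 0.0136), NDUFB10 (-0.17, 0.0179), NDUFS5 (-0.23, 0.0315) and NDUFA12 (-0.42, 0.0339) were lower. UQCR10 of complex III (-0.19, 0.0147) and COX7C of complex IV (-0.19, 0.0385) were also lower, and UQCR11 of complex III was higher (0.23, 0.0243). The highest values were SDHD at 0.50, NDUFA13 at 0.43 (adjusted p = 0.185) and ATP5S at 0.30 (0.0698).

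Across the inactive lines no fixed core or catalytic subunit passed, in complex II or outside it. NDUFS1, which holds iron-sulfur clusters of the electron entry arm of complex I, had a log2 fold change of -0.12 (95% interval -0.26 to 0.02), and NDUFV1, which binds NADH, -0.22 (-0.45 to 0.00). COX4I1 was at -0.04 (-0.21 to 0.13), COX5A at 0.00 and COX5B at 0.06 (-0.04 to 0.15). The catalytic ATP synthase subunits ATP5F1A and ATP5F1B were at -0.17 (-0.36 to 0.03) and -0.28 (-0.92 to 0.36), and the inhibitor ATP5IF1 at -0.16. UQCRC2 and the Rieske iron-sulfur protein UQCRFS1 were at -0.14 and -0.16, and NDUFB8 was at -0.10. NDUFA4 at -0.34 and COX7A2L, a supercomplex factor, at -0.57 had wide intervals that covered no change.

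No member passed for LPS at 3 h in limma without weights or a block. The counts were 0 of 84 in WT (0.25% of all genes tested passed), KO (0.58%), HA (0.403%) and SA (0.492%), with 0, 0, 0 and 6 members at an unadjusted p of 0.05. Of the 12406 genes tested, 200, 673, 591 and 1222 were under that unadjusted limit. Over the mean of the 4 lines it was 0 of 84 (1.78% of all genes), with 1 at an unadjusted p of 0.05 (1289 of all genes). With voom it was 0 in all of these. With the replicate block in WT and KO libraries alone, 1 member passed for LPS in KO, NDUFB3 at 1.34. With library weights, 2 passed for LPS in SA, NDUFB4 (0.54, adjusted p = 0.00274 in limma) and NDUFC1 (1.12, 0.00934). For the block and the weights the shares of all genes are not reported here. Members higher and lower after LPS were 42 each over the mean of the lines, with a median of 0.01. Without SA LPS replicate 1, 53 were higher and 31 lower with a median of 0.08, and without KO replicate 3 the median was -0.02. The 95% interval lay within 0.5 log2 units of no change for 55 members and within 1 for 76. The largest values were UQCRHL and SDHC, both at 0.46, and NDUFB3 at 0.40, and among the lowest were NDUFB2-AS1 at -0.70 (adjusted p = 0.321) and ATP5MGL at -0.24. The difference in the LPS response between inactive and active lines passed for 0 members (0% of all genes). At an unadjusted p of 0.05 in limma 1 member passed (238 of all genes), and 0 passed by voom.

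The same libraries did show the LPS response. ACOD1, the enzyme of itaconate synthesis, rose by a log2 fold change of 4.79 over the mean of the lines (adjusted p = 1.71e-12 in limma), with 4.09 in WT, 5.70 in KO, 4.55 in HA and 4.82 in SA. SOD2, the mitochondrial superoxide dismutase, rose by 1.26 (adjusted p = 6.31e-05). These were the 2 genes that passed over the mean of the lines among 7 tested of an 11-gene list of activated macrophages. Complex II genes, the target of itaconate, had log2 fold changes after LPS of -0.14 (SDHA), 0.34 (SDHB), 0.46 (SDHC) and -0.18 (SDHD), none of which passed. Without SA LPS replicate 1 SDHA and SDHD turned to 0.13 and 0.20, SDHB was at 0.62 and SDHC at 0.61, and again none passed.

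Other genes of the pathway were counted in the inactive lines against the active ones, where 14.6% of all genes passed. Of 13 subunits encoded in mitochondrial DNA, 13 were higher, with a median of 0.29, and 1 passed (MT-ND4L, 0.37, adjusted p = 0.00693 in limma). Against WT they were 4 higher and 9 lower in untreated KO (median -0.10), 11 higher in untreated HA (0.42), 13 higher in LPS-treated KO (0.59) and 12 higher in LPS-treated HA (0.35). SA, a line with active ACLY, had 2 higher and 11 lower untreated (-0.18). After LPS SA had 11 higher and 2 lower than WT (0.31), so the higher values were not particular to the inactive lines. After LPS 13 of 13 were also higher over the mean of the lines, with a median of 0.23 and no call. By line the LPS medians were 0.02 in WT (7 higher, 6 lower), 0.69 in KO (13 higher), -0.10 in HA (5 higher, 8 lower) and 0.47 in SA (12 higher, 1 lower). Of 5 electron carriers outside the name rule, cytochrome c among them, 5 were lower and none passed (median -0.27).

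Of 50 assembly factors, 34 were lower and 6 passed. TIMMDC1 (-0.31), NUBPL (-0.67), LYRM7 (-0.40), COX20 (-0.29) and ATPAF1 (-0.34) fell, which build complexes I, III, IV and V, and NDUFAF3 of complex I rose (0.29). Of 12 tested regulators of mitochondrial biogenesis, 10 were lower and none passed (median -0.10). Of 77 mitochondrial ribosomal proteins 5 passed, all lower (median -0.15), and of 80 cytosolic ribosomal proteins 9 passed, all lower (median -0.33, 73 lower). Of 20 proliferation genes, 1 passed (AURKA, 0.33) and the median was -0.12.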

How the data were processed

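RNA was prepared for 3′ sequencing from 32 libraries, 4 in each of 8 groups of THP-1 lines. The authors used Bbduk for trimming, STAR for mapping (GRCh38), HTSeq-count for the counts per gene and DESeq2 for scaling. Versions are not given in the sources used here. The deposited tables hold normalized counts, written with decimal commas and scaled within each line. The methods also give another LPS dose than the labels, whose 100 ng/ml is used here.

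Each deposited value was a whole multiple of the worth of 1 read (100% within 0.05 reads), so reads were recovered and rescaled with median-of-ratios factors over all libraries. Relative to WT, the values as deposited were offset from the rescaled values by -0.0958 (KO), 0.1518 (HA) and 0.2647 (SA) log2 units. The 92 rows that name no gene, with 1 read in all, were left out. Genes with a mean of at least 10 (12406) were tested with limma 3.58.1 (R 4.3.3) on log2(count + 1) with 1 mean per group and a trend, with Benjamini-Hochberg adjustment over all of them and a call limit of 0.01, in 13 comparisons. The planned edgeR, TMM and DESeq2 alternatives were not run here, since the tables with decimal commas could not be entered as counts, and limma voom was used on the recovered reads instead. The script was tested on simulated data with known changes.

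Members and gene lists were chosen with earlier results of these data known. Values are given for members that passed, for the 3 highest and 3 lowest members where fewer than 6 passed, and for fixed members of each complex. NDUFB3, the genes at an adjusted p under 0.05, the long-arm members and the neighbours were named after their values were seen. Library numbers were treated as pairing WT and KO libraries, because the deviations of same-numbered libraries correlated above 0.1 in every pair of those 4 groups (lowest 0.124). This was not so for HA and SA. No label gives the pairing, and among LPS-treated KO libraries the best match bore the same number for only 2 of 4 WT libraries. Gene positions are from GENCODE release 44, all 84 members matched, and the arms of chromosome 5 were split at the widest gap between annotated genes (45895970 to 50396192). Some values that the rule for named genes would give are not reported here. Tables hold no column of another series.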

Additional observations from a re-analysis of the deposited data

Results flagged for a closer look

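In 43 members and the 8 groups, 344 sets of 4 libraries were screened for 1 library far from the others. The limit was a gap to the nearest other above Dixon's 95% critical value as a share of the range. Chance gives this for about 1 in 20 independent sets. There were 37 such values, and most were in SA LPS replicate 1 or in replicate 3 of WT or KO. Some of the 43 members were picked for their values in these same libraries, and members moved together within a library. The 37 values are therefore a description and are not set against the chance rate. The cause was not tested.

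In SA LPS replicate 1, the flagged values below the other 3 libraries were 84.5 for NDUFA4, 79.9 for NDUFS4, 47.5 for SDHA, 3152 for UQCRB, 288 for UQCRC2, 238 for UQCRFS1, 5438 for UQCRH, 679.6 for COX5A, 439 for ATP5F1B and 15.1 for ATP5F1C. Those above the others were 4669 for NDUFA13, 18867 for NDUFS6, 3272 for NDUFV1, 178 for ATP5MGL and 9853 for ATP5MPL.

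In untreated WT replicate 3 they were 1603 for NDUFA13, 1273 for NDUFA4, 1054 for NDUFC1, 379 for NDUFS4, 114 for SDHB, 297 for COX7A2L, 6979 for COX7C, 2166 for ATP5F1B, 436 for ATP5F1C and 4765.5 for ATP5MPL. In untreated KO replicate 3 they were 2726 for NDUFA13, 318 for NDUFS4, 131 for SDHA, 6149 for COX7C and 6152 for ATP5MPL.

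In LPS-treated WT replicate 3 they were 597.95 for NDUFA12, 793 for SDHA and 213 for COX7A2L. The remaining values were 8736 for UQCRB in untreated SA replicate 1, 527 for UQCRFS1 and 2103 for ATP5F1A in LPS-treated HA replicate 1, and 56.8 for ATP5MGL in LPS-treated KO replicate 3.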

How the results depend on the processing

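No call was lost or reversed under any alternative run, but several alternatives added calls, and the SA medians of the members changed sign with the deposited size factors. NDUFS6 and UQCRH passed across the inactive lines with each library left out. Calls over all genes stand beside the member counts below only where given, so the counts are not read as particular to the members. Where the counts of members that passed moved by over 1.5 times, the cause was not tested unless stated. With library weights they were 3 in untreated KO against WT, 25 in untreated HA, 2 in LPS-treated KO, 3 in LPS-treated HA, 2 for LPS in SA and 17 across the inactive lines (all genes 3812 against 1809). With the deposited size factors they were 2 in LPS-treated KO and 10 across the inactive lines, all lower, and of all genes 1466 calls were lower and 624 higher, against 837 and 972 on the joint scale. With only the groups compared there were 2 in LPS-treated KO. At the looser limit of 0.05 they were 1 in untreated HA, 1 in LPS-treated KO and 10 across the inactive lines. Voom gave 1 in LPS-treated KO and 5 across the inactive lines. Without the 3 libraries with the fewest genes with a read (HA replicate 1, HA LPS replicate 1 and SA LPS replicate 1; chosen after seeing the data, as were voom, the upper-quartile scale and the block in WT and KO alone), they were 1 in each of KO and HA against WT, untreated and after LPS, and 4 across the inactive lines.

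With the replicate block over all libraries, 1 member passed in LPS-treated KO (NDUFS6) and 5 across the inactive lines. With the replicate block in WT and KO libraries alone, 4 passed in untreated KO (NDUFB1, NDUFS6, SDHA and UQCRH), 5 in LPS-treated KO (NDUFS6, SDHA, SDHD, ATP5MC2 and ATP5ME) and 1 for LPS in KO (NDUFB3). The block changed no other count by over 1.5 times.

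Leaving out 1 library at a time gave 0 to 1 members in KO and HA against WT, untreated and after LPS, and 2 to 7 across the inactive lines, with 7 without SA LPS replicate 1 and 4 without HA replicate 4. The median over members ran from -0.20 (without KO replicate 2) to 0.02 (without KO replicate 3) in untreated KO. The planned edgeR, TMM and DESeq2 alternatives were not run. With 4 libraries per group, a spread above 1 log2 unit in 11 members limits what could be seen.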
